A study of Homo sapiens with 4 samples.

Results

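The WT1 locus was described through every anchor pair with an anchor overlapping chromosome 11 from 32.405 to 32.465 Mb (hg19) in SMC1 HiChIP libraries of A673 cells. An anchor is a stretch of genome at which contacts were counted, and a pair is a pair of anchors joined by at least 1 paired-end tag (PET). The rule gave 453 pairs of 1125468, on 6 anchors of 79850, with 2012 PETs over 4 libraries. Members were chosen by position and by holding a PET. The locus itself was selected on measured values, with lower PET counts at its promoter and at 1 loop in STAG2-null cells already known, so these values are a description and support nothing by themselves.

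A673 cells come from an Ewing sarcoma and express the oncogenic fusion EWS-FLI1, which both genotypes share. The STAG2-null group had 2 libraries of cells in which STAG2 was mutated with Cas9, from clones grown from single cells. The wild-type group had 2 libraries. No treatment or time point is given for either group, and the labels do not say whether the libraries of a group are separate clones or cultures. The p-values therefore reflect library-to-library spread alone, and that spread may be technical. In HiChIP, neighbouring DNA ends are joined in fixed nuclei, and joined fragments carrying a chosen protein, here SMC1, are pulled down and sequenced.

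SMC1 is a core subunit of the cohesin ring, which extrudes chromatin into loops and halts at bound CTCF, and STAG2 is a subunit that binds this ring and can be replaced by its relative STAG1. WT1 encodes a zinc finger transcription factor needed to form the kidney and the gonads, and is named for its loss in Wilms tumour. WT1-AS is a noncoding RNA gene that starts beside the WT1 promoter on the opposite strand. SMC1 contacts measure neither the WT1 transcript nor the identity of the line, and the loss of STAG2 itself could not be checked with them.

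The promoter is shown because 1 end of the differential loop carries it, with a flag for CTCF and none for FLI1 in the authors' deposited table. The 250 bases before the WT1 start, from RefSeq (GRCh38.p14, chr11:32435540-32435789, minus strand), are printed 5′ to 3′. Capitals mark GGAA, the core that ETS factors such as FLI1 read, and CCCTC, the letters that gave CTCF its name, each on either strand (TTCC and GAGGG on the other).
WT1 promoter: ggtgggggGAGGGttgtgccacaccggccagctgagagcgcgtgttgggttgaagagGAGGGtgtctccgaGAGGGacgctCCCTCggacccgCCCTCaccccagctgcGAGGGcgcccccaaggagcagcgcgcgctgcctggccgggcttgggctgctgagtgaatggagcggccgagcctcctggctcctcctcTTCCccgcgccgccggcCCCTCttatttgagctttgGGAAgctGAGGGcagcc
The window held 8 matches to CCCTC, a number that 0.604% of 34796 promoter windows of this length reached, while 66.5% held at least 1. GGAA matched at 2 places, against a median of 3 and with 92.8% of windows holding 1. GGAAGGAA, a run of 2 such cores, had no match here and was in 3.07% of windows. No 2 matches overlapped. The window was GC-rich at 70.4%, against a median of 58%, and a match is a description of letters, not a bound site. The build differs from that of the contacts, so the window was not placed within the anchor by coordinates.

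The libraries held between 661881 and 765017 PETs. At the locus, 213 of the 453 pairs (47%) rested on 1 PET over the 4 libraries. Pairs with at least 20 PETs and anchors with at least 40 were tested between genotypes, over the whole genome, with edgeR's quasi-likelihood test and Benjamini-Hochberg adjustment at a threshold of 0.05. This left 16 member pairs, with 41.8% of the locus's PETs, and all 6 member anchors. Normalised PETs are PETs per 1000000 of the TMM-scaled library size, library-scaled PETs are PETs per 1000000 PETs of the library, and log2 changes are STAG2-null over wild-type with standard errors of the fit.

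The WT1 locus as a whole held fewer SMC1 contacts in STAG2-null cells, while the rest of the 2 Mb around it differed by much less. The locus took 463 and 389 PETs in STAG2-null 1 and 2 and 542 and 618 in wild-type 1 and 2. Both STAG2-null libraries lay below both wild-type libraries after scaling, at 678 and 557 against 819 and 808 library-scaled PETs. The means were 618 ± 85.5 and 813 ± 7.82 (SD, n = 2), a log2 ratio of -0.40, and of -0.26 without STAG2-null 2, the lowest library. All other pairs with an anchor in the 2 Mb stood at 2131 ± 10.8 against 2193 ± 5.74 library-scaled PETs (SD, n = 2), a log2 ratio of -0.04. The whole of chromosome 11 stood at -0.07 and its stretch from 30 to 40 Mb at -0.04. An exact two-sided permutation test of 2 against 2 libraries cannot give a p below 0.333.

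The 6 anchors lay along the gene. The promoter anchor, where the authors' deposited table puts the WT1 start, spans 32453424 to 32462574. WT1 is transcribed toward lower coordinates and spans 47.8 kb in RefSeq. Wherever in this anchor the start lies, a gene of that length ends between 32405660 and 32414810, inside the broad anchor from 32402109 to 32415994, here the 3′ anchor. The other 4 lay in the gene body, with midpoints 7.95, 14.5, 30.6 and 37.0 kb from that of the promoter anchor. The same table flags the 3′ anchor for CTCF, FLI1 and H3K27ac, the histone mark of active enhancers and promoters, and flags the promoter anchor for CTCF and as a promoter, without H3K27ac. Of the 1134 anchors in that table, 6.35% carry the 3 flags of the 3′ anchor, and 12.6% of its 325 promoter anchors lack H3K27ac.

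The 3′ anchor was the busiest of the 98 anchors in the 2 Mb, with 1089 PETs and 145 partners, and 10 of 4911 anchors on chromosome 11 held more PETs. It is also wide, at 13.9 kb against a median of 2.1 kb for the other anchors. Per kb of width it ranked sixth, at 78.4 PETs against a median of 47.9. The promoter anchor held 509 PETs, the third highest count in the 2 Mb, and ranked 29 of 98 per kb at 55.6. Its neighbours in the gene body at 7.95 and 14.5 kb held 395 and 305.

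All 6 anchors were lower in STAG2-null cells by the fitted value, where 49.9% of all tested anchors were, and the promoter anchor stood lowest. The promoter anchor held 109 and 90 PETs in STAG2-null and 154 and 156 in wild-type libraries, with no overlap after scaling. Its normalised PETs were 144 ± 21.6 against 219 ± 21.1 (SD, n = 2), which on the log2 scale is -0.61 ± 0.16. The anchor at 7.95 kb held 81 and 75 against 101 and 138 PETs (-0.58 ± 0.17). The anchor at 14.5 kb held 68 and 57 against 86 and 94 PETs (-0.49 ± 0.19). At these 2 gene-body anchors too the genotypes lay apart.

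Toward the 3′ end the values were smaller. The anchor at 37.0 kb held 61 and 41 against 56 and 82 PETs (-0.40 ± 0.21), with wild-type 1 below STAG2-null 1. Its value was -0.73, -0.13 or -0.21 without STAG2-null 1, STAG2-null 2 or wild-type 2. The narrow anchor at 30.6 kb held 31 and 7 against 26 and 19 PETs (-0.21 ± 0.33), so that its STAG2-null libraries enclosed the wild-type ones, and its value ran from -1.65 to 0.51 on leaving out 1 library. The 3′ anchor held 249 and 232 against 276 and 332 PETs, or 347 ± 22.6 against 428 ± 10.8 normalised PETs (SD, n = 2), which on the log2 scale is -0.30 ± 0.13. Its genotypes lay apart.

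Of the 6 anchors, 2 passed the threshold, the promoter anchor and the one at 7.95 kb (adjusted p = 0.0465 in edgeR's quasi-likelihood test), where 1.9% of 40832 anchors passed in either direction and 1.1% passed lower. The other 4 had adjusted p of 0.167 (14.5 kb), 0.228 (3′ anchor), 0.372 (37.0 kb) and 0.832 (30.6 kb) in edgeR. At an unadjusted p under 0.05, 4 of the 6 were lower, against 7.33% of all tested anchors. The promoter anchor was among the values known when the locus was picked, so nothing is read from its call. Anchors of the locus share pairs, so their values are not independent. Neither call held with DESeq2, with each chromosome or each 10 Mb window scaled to its own total, without STAG2-null 2, without wild-type 1 or without wild-type 2. The promoter anchor then stood at -0.61, -0.53, -0.56, -0.46, -0.51 and -0.71 in that order, and the anchor at 7.95 kb at -0.57, -0.50, -0.53, -0.51, -0.68 and -0.45.

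Just outside the window, the anchor 11.2 kb above the promoter, from 32467204 to 32471178, held 52 and 26 against 68 and 63 PETs (-0.71 ± 0.23). By its distance it lies within WT1-AS, which spans 23.3 kb. The nearest anchor below the 3′ anchor, from 32397781 to 32400065, held 48 and 40 against 56 and 60 (-0.36 ± 0.23).

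The loop between the promoter and the 3′ anchor, known to be lower when the locus was picked, had the lowest log2 value of the 16 tested member pairs. It held 15 and 10 PETs in STAG2-null libraries and 26 and 31 in wild-type libraries. That was 17.7 ± 5.74 against 41.2 ± 2.06 normalised PETs (SD, n = 2), and -1.23 ± 0.36 on the log2 scale. The authors' deposited table lists it as the sole differential loop of the locus, stronger in wild-type cells, at 1.19 for wild-type over mutant on the log2 scale with an adjusted p of 0.0385. That table holds 650 loops, 2.87% of their 22680 high-confidence loops, with 1.32% stronger in wild-type cells, and 26 of the high-confidence loops belong to the locus. In edgeR's fit over all pairs this loop did not pass the threshold. With anchors merged within 5 kb, which joins the promoter to its neighbours from 14.5 kb inside the gene to 11.2 kb above it and the 3′ anchor to the 4 beside it, the value was -0.60.

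At 48.9 kb, the loop was the strongest of 80 pairs of 40 to 60 kb with an anchor in the 2 Mb, with 82 PETs over the 4 libraries against a median of 3. The next strongest, at 65 PETs, joined the 3′ anchor to the gene-body anchor beside the promoter. Over the genome, 30 of 52697 pairs of that distance held more PETs. Both its anchors are wide. Per square kb of its 2 anchors it held 0.645 PETs, against a median of 0.461, and 29 of the 80 pairs stood higher. Among the authors' 650 differential loops, 25 join a FLI1-flagged anchor without a promoter to a promoter anchor, and 12 of those are stronger in wild-type cells (48%), against 46.2% of all 650.

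**Figure D1:**
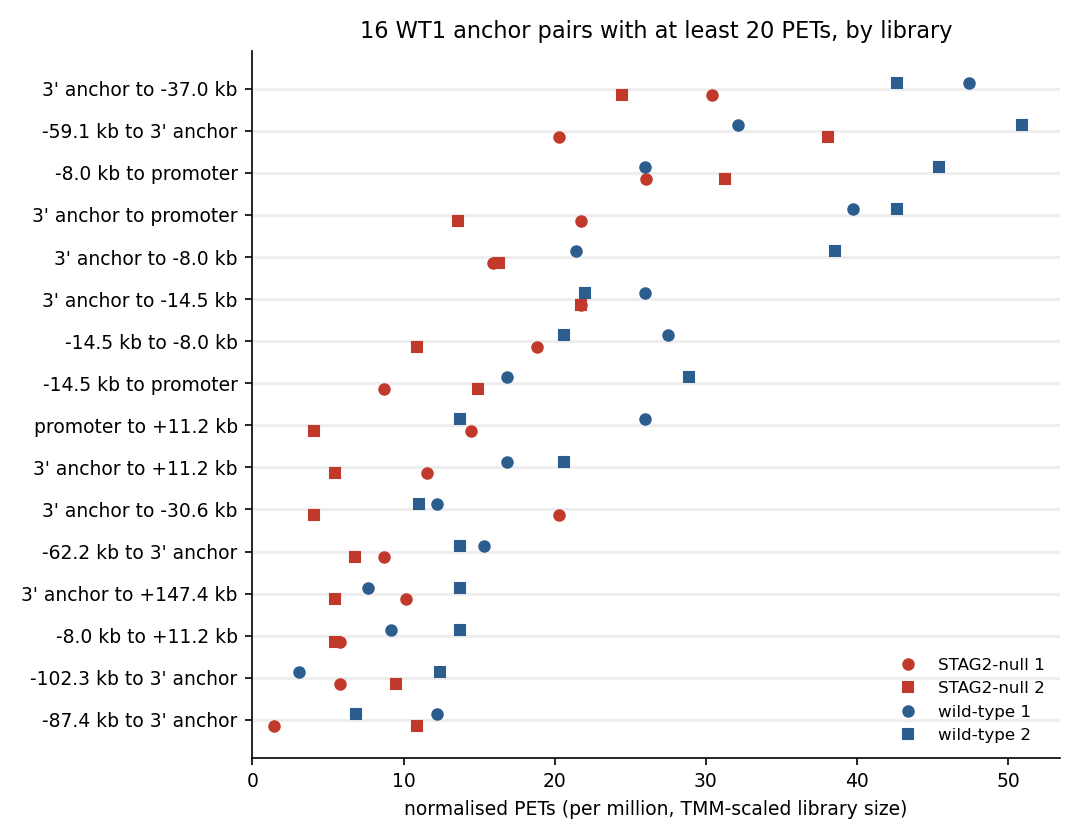
Normalised PETs (per 1000000 of the TMM-scaled library size) of the 16 tested WT1 pairs, 1 point per library, red for STAG2-null and blue for wild-type; anchors are named by their distance in kb from the promoter anchor. The promoter to 3′ anchor loop stood at 21.7 and 13.6 in STAG2-null and 39.8 and 42.7 in wild-type libraries.

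The strong pairs of the locus were mostly lower. The counts that follow include the promoter to 3′ anchor loop, which was known to be lower when the locus was picked. They also include the promoter's pairs with the gene-body anchors at 7.95 and 14.5 kb and with the anchor 11.2 kb above it. The PETs of these pairs are part of the promoter count that was also known to be lower. Of the 16 tested member pairs, 15 lay below 0 and 1 above, where 50.8% of 11872 tested pairs lay below 0. Their median was -0.70, against -0.04 for all tested pairs. In 9 of the 16 both STAG2-null libraries lay below both wild-type libraries and in 0 above, where 20.3% of tested pairs lay lower and 19.7% higher in this sense. In edgeR 0 of the 16 were called, where 0.219% of all tested pairs passed and 0.126% passed lower, and DESeq2 called 0 of any pairs. At an unadjusted p under 0.05 in edgeR, 6 of the 16 were lower, against 4.88% of tested pairs. These 6 include the loop and the promoter's pairs with the anchors at 14.5 and 11.2 kb. The pair just under the minimum of 20 PETs, the promoter with the anchor at 37.0 kb, held 4 and 5 against 5 and 5. The pairs share anchors, so the counts do not stand for 16 separate measurements.

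Fitted values of the 3′ anchor's pairs with the gene body varied between partners, with standard errors from 0.32 to 0.53. Partners were not tested against each other. Its strongest pair, with the anchor at 37.0 kb, held 21 and 18 against 31 and 31 PETs (-0.71 ± 0.32). The pair with the anchor at 7.95 kb held 11 and 12 against 14 and 28 (-0.91 ± 0.39), with wild-type 2 far above the rest, and stood at -0.40 without that library. The pair with the anchor at 14.5 kb was nearly even, at 15 and 16 against 17 and 16 (-0.14 ± 0.39). The pair with the anchor at 30.6 kb held 14 and 3 against 8 and 8 (0.04 ± 0.53), where the STAG2-null libraries lay on both sides of wild-type and the value ran from -1.47 to 0.80 on leaving out 1 library. So the pair with the anchor at 14.5 kb had nearly even counts, with a standard error of 0.39. The pair with the anchor at 30.6 kb was too uneven between libraries to tell. The adjusted p of the tested member pairs other than the promoter loop ran from 0.415 to 0.963 in edgeR.

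Short pairs around the promoter were also counted. The promoter and the anchor at 7.95 kb shared 18 and 23 against 17 and 33 PETs (-0.33 ± 0.33), with overlap between the genotypes and a range from -0.66 to 0.15 on leaving out 1 library. The promoter and the anchor at 14.5 kb shared 6 and 11 against 11 and 21 (-0.95 ± 0.45). The 2 gene-body anchors shared 13 and 8 against 18 and 15 (-0.69 ± 0.42). In the last 2 pairs the scaled values of the genotypes did not overlap. On leaving out 1 library, the first of these ran from -1.40 without STAG2-null 2 to -0.49 without wild-type 2, and the second from -1.12 without STAG2-null 1 to -0.34 without STAG2-null 2.

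Pairs that cross the promoter toward WT1-AS held few PETs. The promoter and the anchor 11.2 kb above it shared 10 and 3 against 17 and 10 PETs (-1.09 ± 0.50), with STAG2-null 1 above wild-type 2 after scaling. Without STAG2-null 1, STAG2-null 2 or wild-type 1 that value was -2.22, -0.43 or -0.58. The 3′ anchor shared 8 and 4 against 11 and 15 with that same upstream anchor (-1.14 ± 0.52), and the anchor at 7.95 kb shared 4 and 4 against 6 and 10 (-1.02 ± 0.63). The last 2 pairs did not overlap, although the pair of the 3′ anchor stood at -1.76 without STAG2-null 1 and -0.69 without STAG2-null 2.

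Below the gene, the 3′ anchor and the next anchor, 10.1 kb away, shared 14 and 28 against 21 and 37 PETs (-0.51 ± 0.32), and each genotype spread widely. Its value was -0.14, -1.04, -0.79 or -0.13 without STAG2-null 1, STAG2-null 2, wild-type 1 or wild-type 2. The pair at 13.2 kb held 6 and 5 against 10 and 10 (-0.89 ± 0.55). The pairs at 38.4 and 53.3 kb held 1 and 8 against 8 and 5, and 4 and 7 against 2 and 9, and showed no separation, with values that changed sign on leaving out 1 library. The sixteenth pair joined the 3′ anchor to an anchor 196 kb above it, with 7 and 4 against 5 and 10 PETs, and its value ran from -0.97 to 0.02 on leaving out 1 library.

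**Figure D2:**
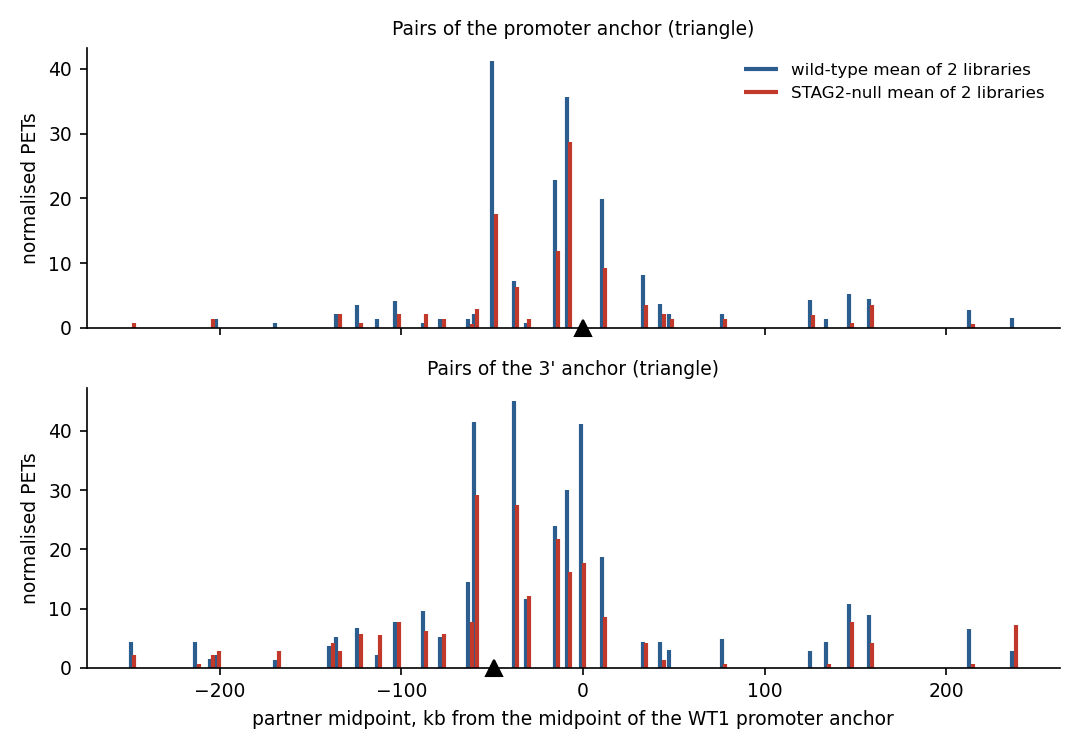
Mean normalised PETs (2 libraries per genotype) of each pair of the promoter anchor (top) and of the 3′ anchor (bottom), at the partner's distance in kb from the promoter anchor; the triangle is the anchor itself. For the promoter anchor the tallest wild-type bar is the 3′ anchor at 41.2, where STAG2-null stood at 17.7.

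The 3′ anchor held fewer PETs in STAG2-null cells on its gene side, while its other side was nearly even. Toward higher coordinates, across the gene, it held 154 and 136 PETs in STAG2-null and 184 and 223 in wild-type libraries, which is 210 ± 21.7 against 285 ± 9.55 library-scaled PETs (SD, n = 2). Toward lower coordinates it held 95 and 96 against 92 and 109, which is 138 ± 1.14 against 141 ± 2.46 library-scaled PETs (SD, n = 2). The log2 ratios of these means were -0.44 and -0.02. The share of its PETs that went across the gene was 61.8% and 58.6% in STAG2-null against 66.7% and 67.2% in wild-type libraries. The genotypes were apart in that direction at 16.8% of 13776 anchors with at least 40 PETs on each side, so such a separation is common. Among its pairs toward lower coordinates, those of 200 to 500 kb held 20 and 12 against 8 and 13 PETs, and those over 500 kb held 21 and 16 against 12 and 16. On library-scaled PETs the STAG2-null libraries lay above the wild-type ones in both classes, but narrowly. At 200 to 500 kb the nearest values were 17.2 in STAG2-null 2 and 17.0 in wild-type 2. Over 500 kb they were 22.9 and 20.9, from 16 PETs in each of these libraries. TMM scaling was not applied to these class sums.

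The promoter anchor had lower STAG2-null means on both sides, with overlap between the libraries on the side away from the gene. Toward the gene it held 74 and 64 against 88 and 117 PETs, or 100.04 ± 11.8 against 143 ± 14.1 library-scaled PETs (SD, n = 2). Away from the gene it held 35 and 26 against 66 and 39, or 44.3 ± 9.91 against 75.3 ± 34.5 (SD, n = 2). On that side wild-type 2 lay just below STAG2-null 1, and the higher mean came from wild-type 1.

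Outside the window, the largest difference lay in pairs of 60 to 200 kb toward higher coordinates, a class singled out after its values were seen. These 34 pairs held 33 and 30 PETs in STAG2-null and 62 and 73 in wild-type libraries, which is 45.7 ± 3.79 against 94.5 ± 1.24 library-scaled PETs (SD, n = 2; log2 ratio -1.05). They include the pair of the 3′ anchor with the anchor 11.2 kb above the promoter, at 60.1 kb. The 40 pairs of that length toward lower coordinates held 41 and 32 against 50 and 49 PETs, 52.9 ± 10.05 against 69.8 ± 8.13 library-scaled PETs (SD, n = 2; -0.40). Other pairs of 60 to 200 kb in the 2 Mb stood at 405 ± 9.03 against 431 ± 19.2 library-scaled PETs (SD, n = 2; -0.09). Shorter pairs of the locus with partners above the window had lower STAG2-null means too, so lower means were not confined to 60 to 200 kb. Under 20 kb, 2 such pairs, both with the anchor 11.2 kb above the promoter, held 14 and 7 against 23 and 20 PETs (-0.996). Their genotypes lay apart after scaling. At 20 to 60 kb, 10 such pairs held 13 and 11 against 22 and 12 PETs (-0.49), with overlap. There wild-type 2 lay below both STAG2-null libraries after scaling, and the higher wild-type mean came from wild-type 1.

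Longer pairs of the locus showed less. Pairs of 200 to 500 kb held 49 and 42 against 51 and 48 PETs toward higher coordinates (-0.08) and 36 and 20 against 20 and 42 toward lower coordinates (-0.06), and the libraries overlapped in both. Pairs over 500 kb held 60 and 51 against 61 and 69 PETs above the gene (-0.18) and 42 and 31 against 38 and 32 below it (0.09). Of these last 2 classes, the one above the gene did not overlap between genotypes and the one below it did. Pairs with both anchors inside the window, 15 in all, held 136 and 113 against 157 and 203 PETs, 181 ± 26.4 against 251 ± 19.9 library-scaled PETs (SD, n = 2; -0.48).

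**Figure D3:**
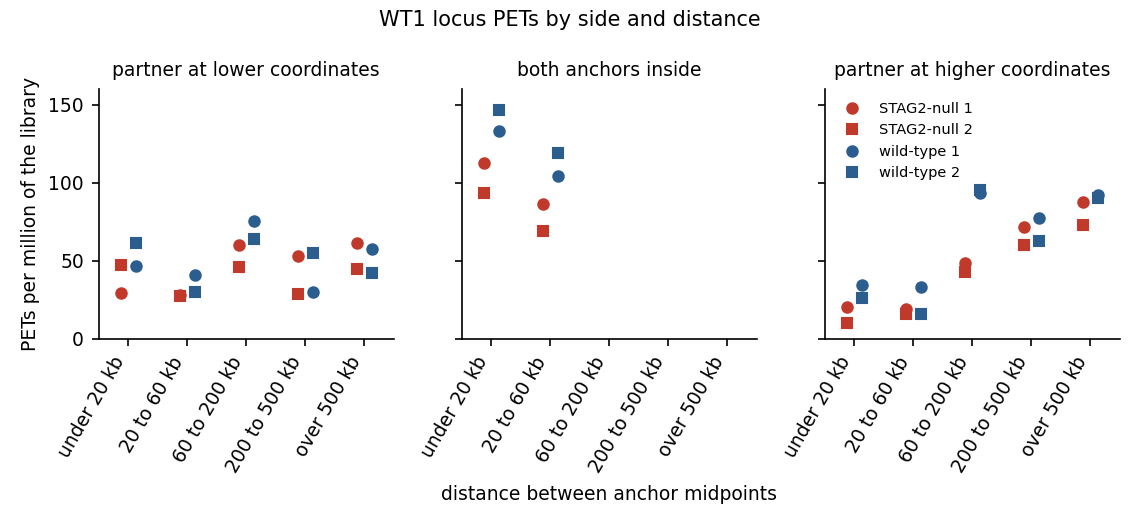
Library-scaled PETs (per 1000000 PETs of the library) in WT1 pairs, by distance between anchor midpoints, for partners at lower coordinates (left), both anchors inside the window (middle) and partners at higher coordinates (right), 1 point per library. At 60 to 200 kb toward higher coordinates the STAG2-null libraries stood at 48.3 and 43.0 and the wild-type libraries at 93.7 and 95.4.

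The locus had 173 partner anchors outside the window, and 18 of them held at least 20 PETs with it. Both STAG2-null libraries lay below both wild-type libraries at 8 of these 18 after scaling, and above them at 0. Among all tested pairs 20.3% lay lower in this sense, and among all tested anchors 22.1%. No such share was computed for partner sums. The partners named here leave out some of the 18, more of them overlapping than lower. Summed partner counts were not tested. The upstream anchor at 11.2 kb was the strongest partner above the gene, with 24 and 14 against 39 and 38 PETs from all 6 member anchors. An anchor 77.4 kb above the promoter, from 32534478, had 2 and 2 against 4 and 12 PETs, and one 214 kb above it, from 32670684, had 4 and 2 against 7 and 15. Anchors 147 and 158 kb above the promoter had 11 and 9 against 14 and 14, and 8 and 6 against 18 and 9. The genotypes overlapped at the anchors 43.5, 237 and 357 kb above the promoter. These had 6 and 4 against 6 and 6, 8 and 5 against 5 and 4, and 4 and 4 against 9 and 3 PETs. Below the gene, the nearest anchor, at 59.1 kb from the promoter, had 21 and 29 against 32 and 43 PETs, and the next, at 62.2 kb, had 6 and 6 against 12 and 12. Farther down, the genotypes overlapped at the anchor from 32354192, with 9 and 10 against 5 and 17 PETs, and at the anchor from 32109272, 345 kb from the promoter, with 10 and 5 against 5 and 11.

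Of the promoter anchor's 89 partners outside the window, 85.4% were also partners of the 3′ anchor, and these made up 54.3% of the 140 outside partners of the 3′ anchor. Those 140 are most of the 173 outside partners of the locus, and the sharing was not compared with that of other anchors. After the upstream anchor at 11.2 kb, the promoter's strongest outside partners were those at 34.1 kb above it (3 and 2 against 7 and 4 PETs) and at 158 kb (4 and 1 against 5 and 1). Partners 102 kb below and 126 kb above it held 9 PETs each, with 2 and 1 against 1 and 5, and 0 and 3 against 3 and 3. Partners at 43.5 kb and 147 kb above it held 8 PETs each, with 3 and 0 against 3 and 2, and 1 and 0 against 5 and 2. At 345 kb and 59.1 kb below it, 2 and 0 stood against 2 and 3 PETs and 4 and 0 against 2 and 1, and at 135 kb below, 2 and 1 against 2 and 1. Apart from the upstream anchor at 11.2 kb, these pairs held fewer than 20 PETs and were not tested.

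Among member pairs under 20 PETs, the 5 largest differences of normalised means in each direction all involved the 3′ anchor or the promoter. The 3′ anchor had 1 and 0 against 4 and 5 PETs with the anchor from 32670684, and 2 and 4 against 8 and 4 with that from 32615593. In the other direction it had 7 and 1 against 1 and 0 PETs with the anchor from 31817705, and 8 and 2 against 2 and 2 with that from 32694437. It also had 3 and 3 against 0 and 0 PETs with the anchor from 32882900. In the first 2 of these higher pairs most of the PETs came from STAG2-null 1. These pairs were not tested.

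Lower anchors were more frequent close to the gene than among all 92 other anchors of the 2 Mb, a difference that was not tested. Those 92 include the near anchors outside the window. Of the 92 other anchors in the 2 Mb, 59 lay below 0 in the fit, with a median of -0.07, against -0.45 for the 6 member anchors and 0.0009 for all tested anchors. None of the 92 passed the threshold in edgeR, with 9 lower and 1 higher at an unadjusted p under 0.05. Some of the lower ones lay far from the gene. The anchor from 32011314, 446 kb below the promoter, stood at -1.01 ± 0.34, and that from 32093327, 363 kb below it, at -1.09 ± 0.45. Both STAG2-null libraries lay below both wild-type libraries at 28 of the 92 and at 4 of the 6, where 22.1% of all tested anchors lay so. Among the busiest other anchors, the one 628 kb below the promoter, from 31817705, held 155 and 123 against 114 and 154 PETs (0.09 ± 0.15), and the one 345 kb below it held 91 and 90 against 89 and 133 (-0.26 ± 0.17). Of the 9 anchors up to 160 kb above the promoter anchor, 8 lay below 0, with a median of -0.63, and of the 12 up to 160 kb below the 3′ anchor 11 did, with a median of -0.27.

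Those neighbours share PETs with the WT1 anchors. Counted without member pairs, the 9 anchors above had a median log2 ratio of -0.41 with 6 below 0, and the 12 below had -0.15 with 10 below 0. All 92 had -0.09. Single anchors above the gene still stood low without member pairs, such as the one from 32534478 with 6 and 8 against 13 and 16 PETs, and the one from 32500548 with 6 and 8 against 14 and 14. Others turned, such as the anchor from 32603966 with 42 and 35 against 27 and 37.

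**Figure D4:**
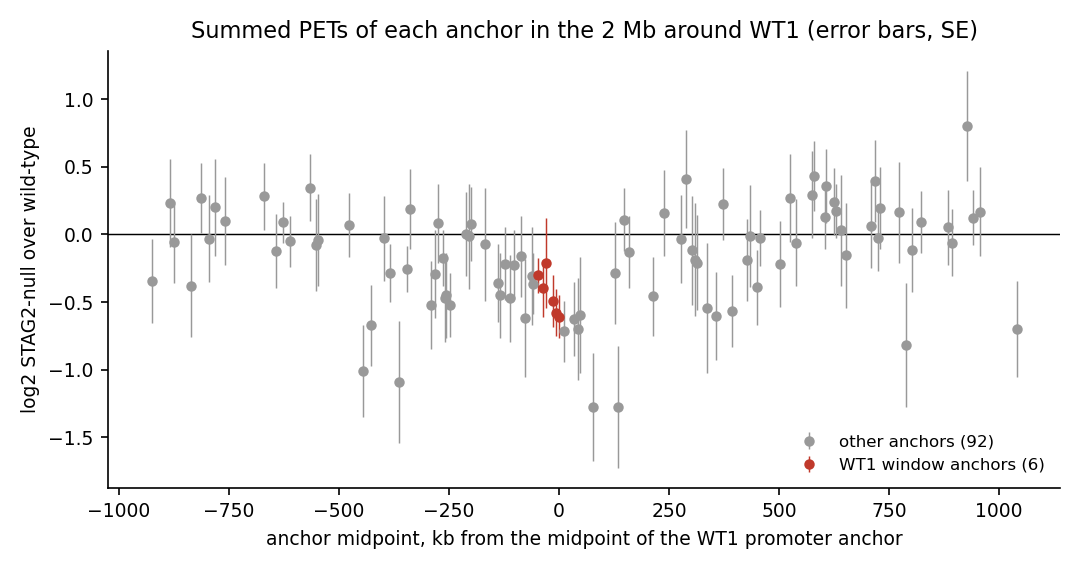
Log2 change of summed PETs (STAG2-null over wild-type, error bars SE of the edgeR fit) at each of 98 anchors, by distance in kb from the WT1 promoter anchor; red marks the 6 anchors of the window and grey the other 92. The red points run from -0.61 at the promoter to -0.21, and the lowest grey points close above the promoter include values of -1.28.

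The 5 anchors of the 2 Mb whose scaled counts over the 4 libraries were most like those of the promoter anchor, by the sum of squared differences of centred log2 values, were spread over the region. They lay 357 kb above it (19 and 15 against 26 and 27 PETs), 14.5 kb inside the gene, 248 kb below it (39 and 36 against 53 and 57), and 48.3 and 43.5 kb above it (10 and 10 against 16 and 15, and 12 and 12 against 20 and 20). With 4 libraries such a likeness is a description only. By order in RefSeq the protein-coding genes next to WT1 are RCN1 and PAX6 on the lower side and EIF3M and CCDC73 on the higher side. None of 16 neighbouring gene names looked for could be placed on an anchor through the deposited tables, so these anchors carry no gene name here.

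Of 36 genes linked to WT1 in kidney and gonad development or as its relatives, partners or targets, 2 had a promoter placed by the authors' deposited table, which lists differential loops, so the pair is no sample of the list. Neither passed the threshold in edgeR. HOXD11, a homeobox gene of the developing limb and kidney, shares its anchor with other HOXD genes and held 362 and 479 against 439 and 480 PETs (-0.10 ± 0.12, adjusted p = 0.776 in edgeR). NR0B1, an orphan nuclear receptor gene of adrenal and gonad development that EWS-FLI1 activates, held 22 and 39 against 22 and 22 PETs (0.50 ± 0.30, adjusted p = 0.453 in edgeR), the difference resting on STAG2-null 2.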

How the data were processed

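Contacts were measured in 4 SMC1 HiChIP libraries, 2 per genotype. Per the submitters' processing notes, HiC-Pro and hg19 were used; versions and loop-calling settings were not given in these sources. The authors deposited, per library, a count of PETs per anchor pair with a p-value, which was not used. They also deposited tables of high-confidence and differential loops, with log2 fold changes and p-values per loop, per the file headers. The sign of the log2 values (wild-type over mutant) was settled against the counts. Count columns there name a genotype and not a library; all 26 member loops equalled the per-library files in order.

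Counts were joined by exact anchor coordinates. Tests were edgeR 4.0.16 (R 4.3.3; quasi-likelihood, robust, TMM, genotype alone), checked on simulated counts, over 11872 pairs and 40832 anchors, with DESeq2 1.42.0 as an alternative. An anchor sum takes all its pairs. The robust setting was chosen to match the counts of calls of an earlier analysis. The members, gene lists and named pairs were chosen with earlier results of these data known. Named were all member anchors, all 16 tested member pairs, the 10 strongest outside partners of the promoter anchor and the untested pairs with the largest differences; neighbouring anchors and outside partners of the whole locus were named after their values were seen. Other settings are given in the closing section. Depth was 661881 to 765017 PETs per library. PETs without molecular identifiers are not independent molecules.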

Additional observations from a re-analysis of the deposited data

How the results depend on the processing

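The WT1 locus total kept its direction under the 9 other settings tried. It ranged from -0.57 for pairs with at least 20 PETs to -0.26, and from -0.55 to -0.26 on leaving out 1 library. The promoter anchor stayed lower in all 15 other fits (-0.77 to -0.46 on leaving out 1 library). It was no longer past the threshold in DESeq2 (-0.61), scaled per chromosome (-0.53), scaled per 10 Mb window (-0.56) or for pairs of at least 20 kb (-0.59). The anchor at 7.95 kb, past the threshold at 0.0465, was also lost with plain library totals (-0.56), at least 20 PETs (-0.57), no filter on low counts (-0.57), pairs of at least 20 kb (-0.63) and the replicate block (-0.58). Merging anchors within 5 kb makes it 1 anchor with the promoter (-0.57).

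Over all pairs, 26 calls became 16 with plain library totals (11 higher, 5 lower), 0 in DESeq2 (141 unadjusted), 10 scaled per chromosome, 6 scaled per 10 Mb window, 10 with at least 10 PETs, 0 with no filter on low counts (at least 2 PETs; 5506 unadjusted in edgeR), 5 with merged anchors, and 0 to 7 on leaving out 1 library. Over all anchors, 777 calls became 34 in DESeq2, 126 scaled per chromosome, 15 scaled per window, 508 with no filter, 448 for pairs of at least 20 kb, and 42 to 1183 on leaving out 1 library (1183 without STAG2-null 1, 148 without STAG2-null 2, 92 without wild-type 1 and 42 without wild-type 2). The causes were not tested. Scaling per chromosome or window turns the excess of lower anchors (326 higher, 451 lower) to 77 and 49, and 8 and 7.

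Reversed values were small or rested on 1 library. On leaving out 1 library, the anchor at 30.6 kb ran from -1.65 to 0.51 (0.14 without wild-type 1) and its pair with the 3′ anchor from -1.47 to 0.80 (-0.03 without wild-type 2), with -0.0024 under the replicate block. The pair of the promoter and the anchor at 7.95 kb ran from -0.66 to 0.15 and the 196-kb pair from -0.97 to 0.02, both highest without wild-type 2. The 34.4-kb pair of the 3′ anchor stood at 0.02 scaled per chromosome. The 53.3-kb pair stood at 0.05, 0.11 and 0.08 with plain totals, per chromosome and per window, and ran from -0.67 to 1.29 on leaving out 1 library (0.25 without STAG2-null 1). The 38.4-kb pair ran from -2.56 to 0.20, and stood at 0.07 with merged anchors.

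Replicate numbers did not pair the libraries (correlation of same-numbered deviations 0.0043 over pairs and -0.0045 over anchors). With the replicate block the promoter anchor stood at -0.61, with 24 pairs and 646 anchors called. Switching off robust estimation, an alternative added after seeing the data, gave 23 pairs and 763 anchors.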
